A study of Rattus norvegicus with 6 samples.

Results

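The genes described here are those that copy DNA and carry a cell into S phase, from origin licensing to nucleosome assembly on new DNA. Of 41 listed genes, 38 were read by a probe set (the group of probes on the array that reads a transcript) annotated to that gene alone, through 51 such probe sets, out of 14217 genes read in this way on the whole array. The members were chosen by name and not by their values, though with earlier results of these data known. Cdc6 and Gins2 had no such probe set, and Rrm2 was read only by 2 probe sets that are also annotated to Rrm2l1, so these 3 genes have no value here.

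Transcript levels were measured on Affymetrix 3′ expression arrays in the rat mammary tumour line LN4D6, in 3 samples of cells transfected with CREB3L1 and 3 samples of untransfected cells. CREB3L1 is a transcription factor of the endoplasmic reticulum membrane that is freed by proteolysis, enters the nucleus and has been studied as a brake on the growth of tumour and virus-infected cells. The control cells received no transfection at all, so an effect of the vector or of the procedure cannot be told apart from an effect of CREB3L1. No source used here states the vector, its promoter, the time after transfection, or whether the transfected cells were a clone or a pool. The labels do not say whether the arrays of a group stem from separate cultures, and the p-values therefore cover only the spread among these 6 samples, which may be technical.

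A replication origin is first loaded with the MCM helicase by the origin recognition complex, CDC6 and CDT1, and is then fired when the kinase CDK2 with its partner cyclin E, and the kinase CDC7, bring in CDC45 and the GINS complex. Polymerase alpha and primase lay down primers, polymerases delta and epsilon extend them with the help of the sliding clamp PCNA, and the fragments of the lagging strand are trimmed and joined. Most genes of this machinery are transcribed as cells approach S phase under the control of E2F factors, and their transcripts are therefore used as markers of proliferating cells. In a bulk sample, fewer cells in S phase and less transcript in each of those cells cannot be told apart.

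Values are log2 expression values and each difference is CREB3L1 minus untransfected, with its standard error or 95% interval from limma fitted across 31042 probe sets and with Benjamini-Hochberg adjusted p over all of them. A gene with several probe sets is represented by the one with the highest mean, and a log2 value of 5 is taken as the background level. All 38 measured members lay above that level in both groups. Backgrounds are given over the 7714 genes on the array whose representative reached that level in a group.

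CREB3L1 replicate 3 stood apart from the other arrays. The 3′ control probe set of Gapdh exceeded the 5′ one by 4.77 on that array, by -0.16 to -0.14 on CREB3L1 replicates 1 and 2, and by -0.16 to -0.10 on the untransfected arrays. The same gap for beta-actin was 7.44 on CREB3L1 replicate 3, 2.37 to 2.78 on the other CREB3L1 arrays and 2.35 to 3.41 on the untransfected arrays. Results are therefore given with and without CREB3L1 replicate 3. The probe set of Creb3l1 itself lay below background, at 3.39 ± 0.03 in CREB3L1 cells and 3.36 ± 0.02 in untransfected cells (SD, n = 3 each). No source used here states from which species the construct came or where its transcript ends, so this probe set checks neither label. Of 15 mammary epithelial markers the keratin genes Krt5, Krt8 and Krt14 were above background and the other 12, among them Epcam, Cdh1 and Krt18, were not. Col3a1 was the only 1 of 7 fibroblast markers and Csf1r the only 1 of 5 measured immune markers above it, and none of 3 measured endothelial and 3 adipocyte markers was. The summed level of the epithelial markers spanned 15.97 to 16.39 (log2) in CREB3L1 cells and 16.06 to 16.26 in untransfected cells, and overlapped. That of the fibroblast markers, carried by Col3a1, spanned 14.61 to 14.88 in CREB3L1 cells and 14.45 to 14.57 in untransfected cells and did not overlap. Col3a1 itself differed by 0.19 ± 0.08 (limma adjusted p = 0.591), and by 0.11 (0.498) without CREB3L1 replicate 3. Krt14 differed by -0.17 ± 0.10 (limma adjusted p = 0.844), and by -0.24 (0.312) without that array, where both CREB3L1 arrays were below all untransfected arrays. The summed immune markers spanned 7.51 to 8.14 in CREB3L1 cells and 7.54 to 7.65 in untransfected cells, and overlapped. These differences are of the size of those of the members, and their part in the members' values was not tested.

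DNA replication and S phase genes differed little between the groups. None of the 38 members passed the test at an adjusted p of 0.05 with all 6 arrays, where 1.02% of all genes above background were higher and 2.61% lower. The differences ran from -0.38 for Pola2 to 0.44 for Orc1, with a median of 0.13 and 29 members above 0, beside a median of 0.01 over all genes above background, of which 51.1% lay above 0. The 95% interval of the difference lay within a 2-fold change in either direction for 35 members, and reached it for Rpa1, Rpa2 and Lig1, where it lay within for 6549 of all 7714 genes above background. At an unadjusted p below 0.05 there were 9 members, all higher in CREB3L1 cells (23.7% of the 38), against 10.6% of all genes above background higher and 13.0% lower. These were Orc1, Mcm4, Mcm7, Pola1, Rfc5, Fen1, Rrm1, Ccne2 and Uhrf1. An ordinary test without moderation also called 0 members.

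Without CREB3L1 replicate 3 the median of the members was lower, while single genes moved both ways. The median difference was 0.05, beside -0.01 over all genes above background. There were 25 members above 0 (65.8%), beside 47.8% of all genes above background. At an unadjusted limma p below 0.05, 9 members were higher and 1 lower, beside 1193 and 1515 of all 7714 genes. The 95% intervals of all 38 members lay within a 2-fold change, as did those of 7308 of all 7714 genes. Of the members, 0 rose and 1 fell, the helicase gene Cdc45, where 3.59% of all genes above background were higher and 6.46% lower. The difference changed sign for 8 of the 38 members, beside 1767 of all 7714 genes above background, a similar share. The 8 were Cdt1, Mcm5, Mcm6, Cdc45, Prim2, Pold1, Rfc4 and Dnmt1.

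**Figure D1:**
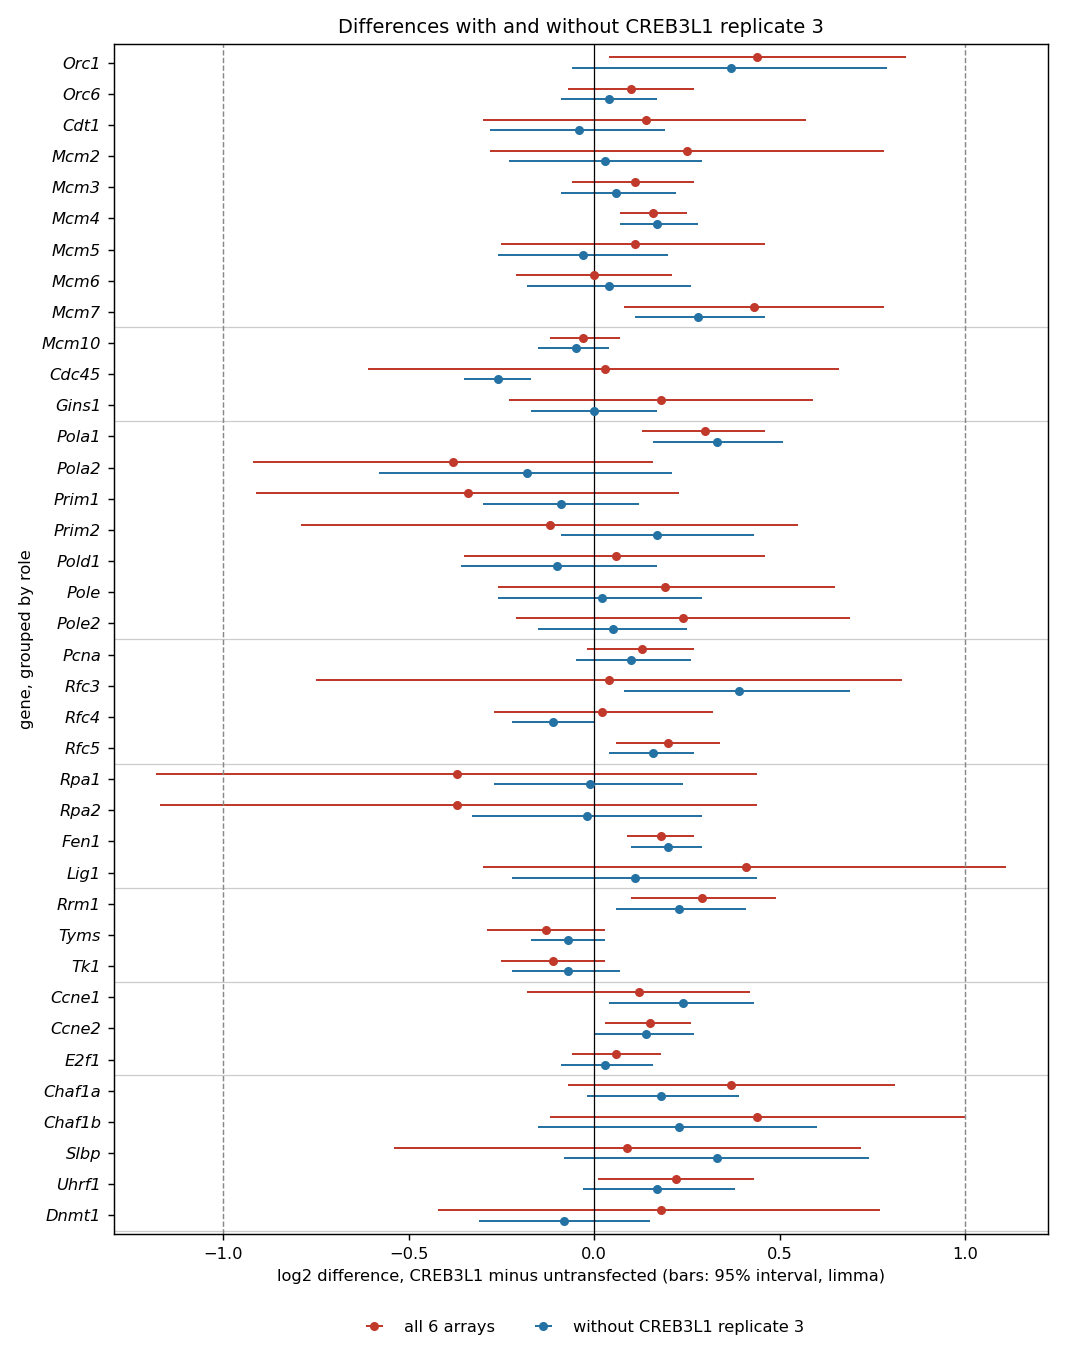
Differences of the 38 measured members, CREB3L1 minus untransfected on the log2 scale (horizontal axis), with 95% intervals from limma, for all 6 arrays (red) and without CREB3L1 replicate 3 (blue). Genes run down the page in groups of the same role, and dashed lines mark a 2-fold change. With 6 arrays the points lie between -0.38 and 0.44, and most intervals narrow without CREB3L1 replicate 3.

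The separation of individual arrays was counted next. Every CREB3L1 array lay above every untransfected array for 10 members (26.3%), against 14.7% of all genes above background, and below for 2 members (5.26%), against 16.5%. The 10 were the 9 genes above and Chaf1a, and the 2 were Pola2 and Tyms. Without CREB3L1 replicate 3 it was above for 12 members (31.6%), against 22.8% of all genes, and below for 5 (13.2%), against 27.6%. The arrays can also be read one at a time against the mean of the untransfected arrays. The median of the 38 members then lay at 0.07, 0.07 and 0.22 on CREB3L1 replicates 1, 2 and 3, and at -0.01, -0.03 and 0.04 on untransfected replicates 1, 2 and 3. Members above 0 numbered 27, 24 and 27 on the CREB3L1 arrays and 17, 15 and 24 on the untransfected arrays. The median over all genes above background lay between -0.018 and 0.028 on the CREB3L1 arrays. On the untransfected arrays it lay between -0.015 and 0.013.

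**Figure D2:**
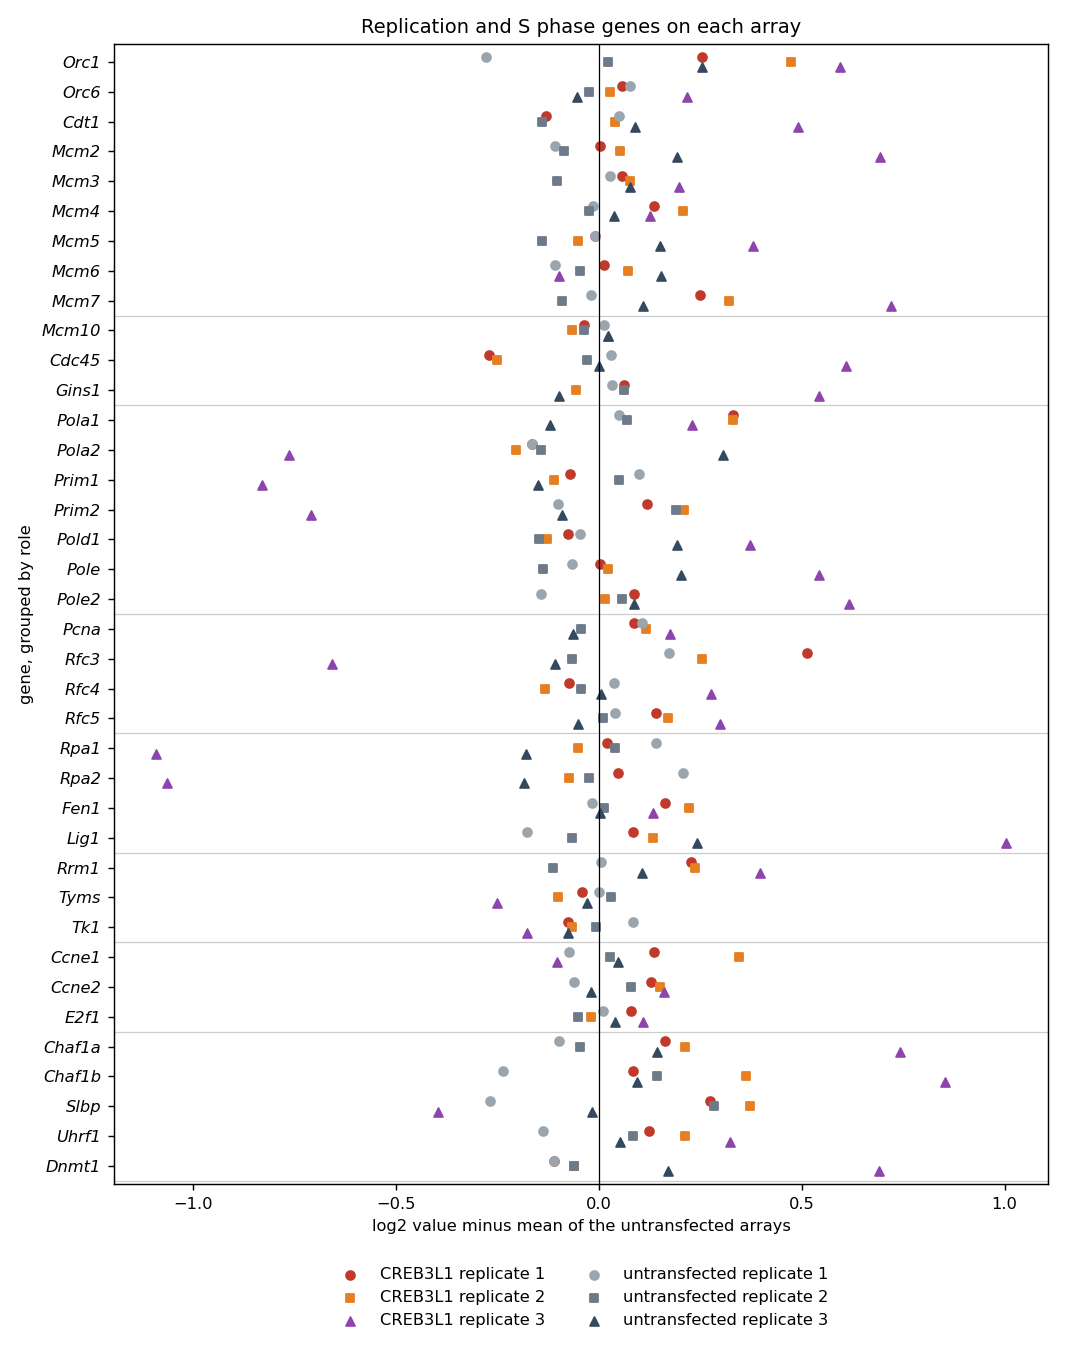
Level of each measured member on each array, as the log2 value minus the mean of the 3 untransfected arrays (horizontal axis), with genes grouped by role down the page. Red, orange and purple symbols are CREB3L1 replicates 1, 2 and 3 and grey symbols the untransfected replicates. CREB3L1 replicates 1 and 2 lie within 0.28 of each other for every gene, while replicate 3 (triangles) reaches about a log2 unit from them in both directions, from -1.07 for Rpa1 to 0.90 for Lig1.

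Among the licensing genes, which load the helicase on origins, no measured member passed the test, with or without CREB3L1 replicate 3, and 8 of 9 differences lay above 0. Mcm4, a helicase subunit, had 13.83, 13.90 and 13.82 in CREB3L1 cells, against 13.68, 13.67 and 13.73 in untransfected cells. All CREB3L1 arrays were above all untransfected arrays, and CREB3L1 replicate 3 lay among the others. The difference was 0.16 ± 0.04, a 1.12-fold level (limma adjusted p = 0.182, and 0.120 without CREB3L1 replicate 3). With weights per array the adjusted p of Mcm4 was 0.0409. Those weights were 0.17 for CREB3L1 replicate 3 and 0.78 to 2.77 for the other arrays. Under the other analysis settings that kept all arrays the adjusted p of Mcm4 ran from 0.139 to 0.502, highest with a mean-variance trend.

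Mcm7, another subunit, had 13.62, 13.69 and 14.09 in CREB3L1 cells, against 13.35, 13.28 and 13.48 in untransfected cells. The groups did not overlap, and CREB3L1 replicate 3 was the highest array. The difference of 0.43 ± 0.14 (limma adjusted p = 0.366) was 0.28 without that array (0.123).

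Orc1, the largest subunit of the origin recognition complex, had 11.47, 11.69 and 11.81 in CREB3L1 cells, against 10.94, 11.24 and 11.47 in untransfected cells. The lowest CREB3L1 array and the highest untransfected array nearly met, and the untransfected arrays were spread more widely than the CREB3L1 arrays. Its difference of 0.44 ± 0.16 was 1.36-fold (limma adjusted p = 0.441) and 0.37 without CREB3L1 replicate 3 (0.444).

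The other helicase subunits showed smaller differences or rested on CREB3L1 replicate 3. Mcm2 gave 0.25 with all arrays and 0.03 without that array, where its values were 12.33, 12.38 and 13.02 in CREB3L1 cells, against 12.22, 12.24 and 12.52 in untransfected cells. Mcm3 and Mcm5 gave 0.11 each with all arrays, and 0.06 and -0.03 without replicate 3. Mcm6 averaged 12.47 ± 0.08 in CREB3L1 cells and 12.48 ± 0.14 in untransfected cells (SD, n = 3 each). The 6 subunits form 1 ring, yet without CREB3L1 replicate 3 their differences ranged from -0.03 for Mcm5 to 0.28 for Mcm7, with a median of 0.05. Cdt1, which brings the ring to the origin, gave 0.14 with all arrays and -0.04 without replicate 3, and Orc6 gave 0.10 and 0.04.

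Of the genes that turn the loaded ring into an active helicase, Cdc45 was the only member to pass the test in the 5 arrays without CREB3L1 replicate 3. It had 9.82, 9.84 and 10.70 in CREB3L1 cells, against 10.12, 10.06 and 10.09 in untransfected cells. CREB3L1 replicates 1 and 2 were both below all untransfected arrays, and CREB3L1 replicate 3 was above all of them. With all arrays the difference was 0.03 ± 0.25 (limma adjusted p = 1.0), and without that array it was -0.26 ± 0.04, a 0.834-fold level (adjusted p = 0.0273). The probe set is of the type whose name marks probes that may also bind other transcripts. Of the other probe sets of Cdc45 above background, 2 in number, the first gave -0.18 (0.211) and the second -0.06 (0.883) in the same 5 arrays, without passing the test.

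Gins1, a subunit of the GINS complex, had 10.89, 10.77 and 11.37 in CREB3L1 cells, against 10.86, 10.89 and 10.73 in untransfected cells. Only CREB3L1 replicate 3 stood outside the other values, and the difference of 0.18 ± 0.16 (limma adjusted p = 1.0) was 0.00 without it, with a 95% interval of -0.17 to 0.17. Mcm10, which helps the helicase start, gave -0.03 with a 95% interval of -0.12 to 0.07.

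Primase and polymerase genes pointed in both directions, with 4 of 7 differences above 0 and none passing the test. Pola1, the catalytic subunit of polymerase alpha, had 10.77, 10.77 and 10.67 in CREB3L1 cells, against 10.49, 10.51 and 10.32 in untransfected cells. The groups were clearly apart, and CREB3L1 replicate 3 was the lowest of its group. The difference was 0.30 ± 0.07, a 1.23-fold level with a 95% interval of 0.13 to 0.46 (limma adjusted p = 0.157, and 0.0753 without CREB3L1 replicate 3). With weights per array the adjusted p was 0.0414. Under the other analysis settings that kept all arrays it ran from 0.111 to 0.454, highest with a mean-variance trend.

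Pola2, the second subunit of the same enzyme, lay the other way, at 7.88, 7.84 and 7.28 in CREB3L1 cells, against 7.88, 7.90 and 8.35 in untransfected cells. The groups did not overlap, but the lowest untransfected and highest CREB3L1 values round to the same number. The difference of -0.38 ± 0.22 (limma adjusted p = 0.822) was -0.18 without CREB3L1 replicate 3. The primase genes Prim1 and Prim2 had 12.52 and 10.18 on CREB3L1 replicate 3, below every other array for each, and their differences of -0.34 and -0.12 were -0.09 and 0.17 without it. Pole, the catalytic subunit of polymerase epsilon, and its partner Pole2 moved the opposite way on that array and gave 0.19 and 0.24 with all arrays, and 0.02 and 0.05 without it. Pold1, the catalytic subunit of polymerase delta, gave 0.06 and -0.10.

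The sliding clamp and its loader had 4 of 4 differences above 0 and none past the test. Pcna encodes the clamp and had 15.07, 15.10 and 15.16 in CREB3L1 cells, against 15.09, 14.94 and 14.92 in untransfected cells. The groups overlapped through untransfected replicate 1, and the difference was 0.13 ± 0.06 (limma adjusted p = 0.619, and 0.647 without CREB3L1 replicate 3). Rfc5, a loader subunit, had 12.47, 12.50 and 12.63 in CREB3L1 cells, against 12.37, 12.34 and 12.28 in untransfected cells. The groups did not overlap, the difference was 0.20 ± 0.05 (limma adjusted p = 0.251, and 0.167 without CREB3L1 replicate 3), and a second Rfc5 probe set gave 0.34 and 0.13.

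Rfc3, also a loader subunit, had 11.61, 11.35 and 10.44 in CREB3L1 cells, against 11.27, 11.03 and 10.99 in untransfected cells. CREB3L1 replicates 1 and 2 were the highest arrays and CREB3L1 replicate 3 the lowest of all. The difference was 0.04 ± 0.31 (limma adjusted p = 1.0) with all arrays and 0.39 (0.207) without replicate 3, the highest of any member in those 5 arrays. Rfc4 gave 0.02 with all arrays and -0.11 without that array.

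Fen1, the nuclease that trims the flaps of lagging-strand fragments, had the smallest p of all members. It had 10.35, 10.41 and 10.32 in CREB3L1 cells, against 10.17, 10.20 and 10.19 in untransfected cells. Each group was tight and the groups were apart, and CREB3L1 replicate 3 lay close to the other CREB3L1 arrays. The difference was 0.18 ± 0.04, a 1.13-fold level with a 95% interval of 0.09 to 0.27 (limma adjusted p = 0.125, and 0.0612 without CREB3L1 replicate 3). When the arrays were quantile normalised again the adjusted p was 0.0316, and with weights per array 0.0181. Under the other analysis settings that kept all arrays it ran from 0.104 to 0.814, highest with a mean-variance trend.

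The genes of the single-strand binding protein were marked by CREB3L1 replicate 3 instead. Rpa1 had 11.47, 11.40 and 10.36 in CREB3L1 cells, against 11.59, 11.49 and 11.27 in untransfected cells. Rpa2 had 10.88, 10.76 and 9.77 in CREB3L1 cells, against 11.04, 10.81 and 10.65 in untransfected cells. In both genes that array alone was low, and the difference of -0.37 was -0.01 for Rpa1 and -0.02 for Rpa2 without it. Lig1, the ligase that joins the fragments, was high on the same array. It had 10.29, 10.34 and 11.21 in CREB3L1 cells, against 10.03, 10.14 and 10.45 in untransfected cells. Its difference of 0.41 was 0.11 without that array. A second Lig1 probe set, with all CREB3L1 arrays above all untransfected arrays, gave 0.21 (limma adjusted p = 0.523). Without CREB3L1 replicate 3 that probe set gave 0.17 (0.533).

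Among the enzymes of nucleotide supply, Rrm1, the large subunit of ribonucleotide reductase, had 12.33, 12.34 and 12.50 in CREB3L1 cells, against 12.11, 11.99 and 12.21 in untransfected cells. The groups did not overlap, and the difference was 0.29 ± 0.08, a 1.22-fold level (limma adjusted p = 0.242, and 0.196 without CREB3L1 replicate 3). Tyms, which makes thymidylate, had 10.31, 10.25 and 10.10 in CREB3L1 cells, against 10.35, 10.38 and 10.32 in untransfected cells. All CREB3L1 arrays were below, by a small margin, and the difference was -0.13 ± 0.06 (limma adjusted p = 0.675, and 0.624 without CREB3L1 replicate 3). Tk1, a thymidine kinase of S phase cells, gave -0.11 with a 95% interval of -0.25 to 0.03. Its other probe sets above background gave -0.05 and 0.22 with all arrays. Without CREB3L1 replicate 3 they gave -0.18 and -0.01, and the representative gave -0.07.

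The genes of S phase entry all had differences above 0. Ccne2, a cyclin E gene, had 13.69, 13.71 and 13.72 in CREB3L1 cells, against 13.50, 13.64 and 13.54 in untransfected cells. All CREB3L1 arrays were above and within 0.03 of each other, and the difference was 0.15 ± 0.05 (limma adjusted p = 0.339, and 0.325 without CREB3L1 replicate 3). The other cyclin E gene, Ccne1, gave 0.12 with all arrays and 0.24 without replicate 3 (0.228). E2f1, which encodes an activating E2F factor, averaged 8.09 ± 0.06 in CREB3L1 cells and 8.03 ± 0.05 in untransfected cells (SD, n = 3 each), a difference of 0.06 with a 95% interval of -0.06 to 0.18.

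Genes that rebuild and mark chromatin behind the fork had the highest median of the role groups, 0.22 over 5 members, and 0.18 without CREB3L1 replicate 3. Uhrf1, which leads the maintenance DNA methyltransferase to new DNA, had 13.64, 13.73 and 13.84 in CREB3L1 cells, against 13.38, 13.60 and 13.57 in untransfected cells. The groups were narrowly apart, with a difference of 0.22 ± 0.08 (limma adjusted p = 0.466, and 0.468 without CREB3L1 replicate 3). Chaf1a, a subunit of the chromatin assembly factor that places histones, had 10.02, 10.07 and 10.60 in CREB3L1 cells, against 9.76, 9.81 and 10.00 in untransfected cells. The groups did not overlap, CREB3L1 replicate 3 was the highest array, and the difference of 0.37 ± 0.18 (limma adjusted p = 0.662) was 0.18 without it (0.412).

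Chaf1b, its partner subunit, gave 0.44 with all arrays and 0.23 without replicate 3. Slbp, which binds the stem-loop of histone transcripts, had 14.19, 14.29 and 13.52 in CREB3L1 cells, against 13.65, 14.20 and 13.90 in untransfected cells. CREB3L1 replicate 3 was the lowest of all arrays and untransfected replicate 1 the next, and the difference of 0.09 ± 0.25 (limma adjusted p = 1.0) was 0.33 without replicate 3 (0.5). Dnmt1, the maintenance methyltransferase, gave 0.18 with all arrays and -0.08 without that array.

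The values on CREB3L1 replicate 3 differed between members in a way that the means hide. That array lay over 0.5 from the mean of the other CREB3L1 arrays for 17 of the 38 members (44.7%), 10 above and 7 below, beside 2317 of the 7714 genes above background. By role it was 4 of 5 chromatin genes, 3 of 4 genes of single-strand binding and joining, 5 of 7 primase and polymerase genes, 2 of 3 genes of helicase activation, 2 of 9 licensing genes, 1 of 4 clamp and loader genes, 0 of 3 genes of nucleotide supply and 0 of 3 of S phase entry. CREB3L1 replicates 1 and 2 differed from each other by that much for 0 members. The 7 below were Pola2, Prim1, Prim2, Rfc3, Rpa1, Rpa2 and Slbp, and the 10 above were Cdt1, Mcm2, Cdc45, Gins1, Pole, Pole2, Lig1, Chaf1a, Chaf1b and Dnmt1. It was the highest of all 6 arrays for 24 members and the lowest for 10, beside 3013 and 2415 of the 7714 genes above background. Among these arrays it was also the one with the widest gap between the 3′ and 5′ control probe sets, and the part of that gap in the members' values was not tested.

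Probe sets of the same gene disagreed on that array. Orc6, a subunit of the origin recognition complex, had 3 probe sets above background, which lay -1.03, -0.75 and 0.17 from the mean of the other CREB3L1 arrays. Without that array their differences between the groups were -0.01, 0.02 and 0.04. The 3 probe sets of Cdc45 above background spanned -0.07 to 0.87 on the same measure, those of Tk1 -0.10 to 0.68, the 2 of Lig1 0.10 to 0.90 and the 2 of Rfc5 0.14 to 0.63. Over these 5 genes the probe sets of a gene were 0.48 to 1.20 apart in the shift of CREB3L1 replicate 3, and 0.03 to 0.20 apart in the group difference without it. The remaining probe sets of members, 5 in all, lay below background in both groups and belonged to Ccne2, Slbp, Cdc45 and Mcm10.

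**Figure D3:**
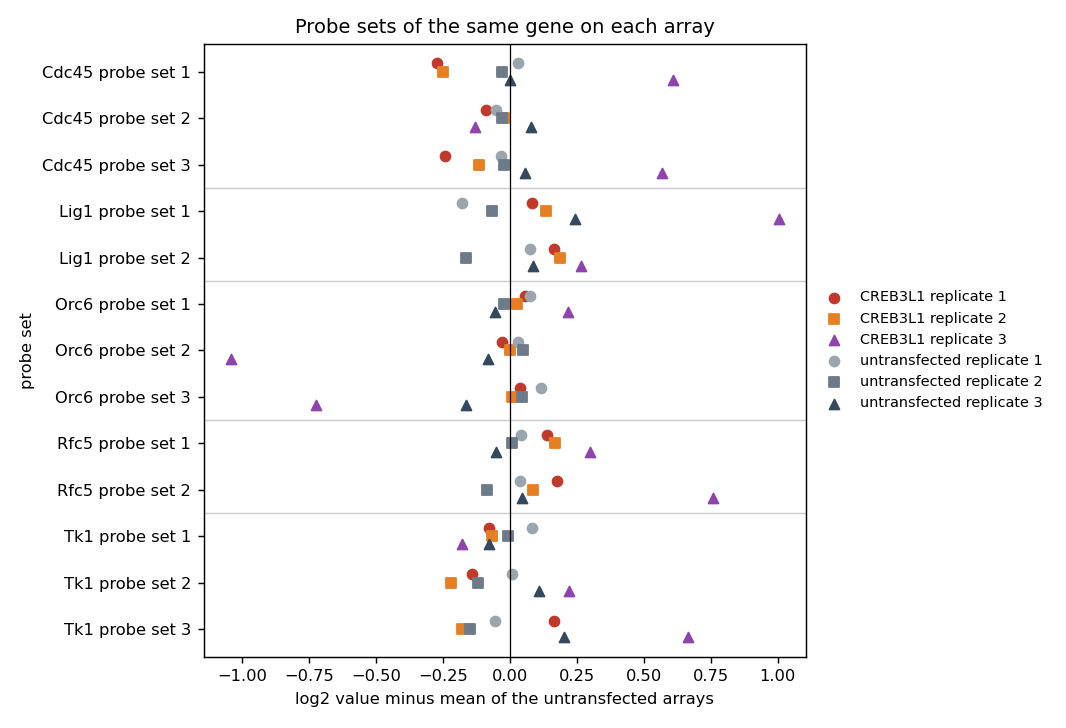
Probe sets above background of the 5 members that had over 1 of them, as the log2 value minus the mean of the untransfected arrays (horizontal axis), with a row for each probe set in falling order of mean level within a gene. Purple triangles are CREB3L1 replicate 3. They lie on opposite sides of 0 for probe sets of Orc6, Cdc45 and Tk1, while CREB3L1 replicates 1 and 2 (red and orange) stay near the untransfected arrays (grey).

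A smaller shift was present among the untransfected arrays, in the members about as in all genes. Untransfected replicate 3 lay -0.27 to 0.46 from the mean of untransfected replicates 1 and 2 over the 38 members. Its beta-actin gap was 3.41, against 3.05 and 2.35 on untransfected replicates 1 and 2, and its Gapdh gap -0.10, against -0.16 and -0.14. The part of these gaps in the shift was not tested. The shifts of untransfected replicate 3 and CREB3L1 replicate 3 had the same sign for 28 members (73.7%). Their Pearson r was 0.58 across these genes, which are not independent replicates. Over all 7714 genes above background the same sign was found for 70.4%, with r = 0.56. The pair of arrays shares no sample, and was compared after its values were seen. The replicate numbers only follow the order of deposit and tie no array of a group to an array of the other.

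Many of the members carry an E2F motif in their promoter windows. The choice by name used no sequence, but most genes of this machinery are under E2F control, so a high share could be foreseen. RefSeq promoter windows of assembly GRCr8, 250 bases before to 50 after the annotated start, were matched for 35 of the 41 listed genes. A single window was used per gene. For some genes, among them Pole2, Pold1, Uhrf1, Fen1 and Cdc45, its start lay inside the annotated bounds of the gene. Sequence at the outer bound of such genes was not searched unless the window reached it. The E2F motif was searched as TTTGGCGC, TTTCCCGC, TTTGCCGC or TTTCGCGC on both strands, so that a palindrome such as the one in Gins1 counts as 2 overlapping matches. It was present in 16 of the 35 member windows (45.7%), against 2.25% of 27457 windows of all genes, and 8 of the 16 held over 1 match. Of 25 matches, 18 began within 60 bases of the start. These stretches of 30 bases show the matches (capitals) nearest to the start, chosen to show the palindromes, the paired matches and the single matches.

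Gins1 (chr3:160184886-160184915, plus strand): ttaagcctaTTTGGCGCCAAAgagaggagc

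Mcm2 (chr4:122918088-122918117, minus strand): tgacccggtTTTCGCGCGAAAacccgtggc

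Rfc3 (chr12:5836559-5836588, plus strand): gcagccTTTCGCGCtcGCGGGAAAactcgt

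Mcm3 (chr9:30733734-30733763, minus strand): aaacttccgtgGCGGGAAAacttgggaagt

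Tyms (chr9:120776102-120776131, minus strand): aaggtgcgggtTTTGGCGCcgactacactg

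Pole (chr12:52053646-52053675, minus strand): cacatgagagcGCGCCAAAttttcccggga

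Pole2 (chr6:93435334-93435363, minus strand): cttcggcggtgGCGCCAAAtctcaaacatg

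Mcm5 (chr19:13488794-13488823, plus strand): ccaggttggttTTTCCCGCgaaagtcggct

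In Gins1 and Mcm2 the matches on the 2 strands overlapped in part, and in Rfc3 they stood on opposite strands 2 bases apart. The motifs of the stress-driven bZIP factors were searched in the same windows. The element TGACGTGG of the unfolded protein response was in 0 of the 35 member windows, against 0.637% of all windows, and the cAMP response element TGACGTCA in 1, that of Mcm5, against 1.91%. A missing match says only that these letters are not in this window.

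**Figure D4:**
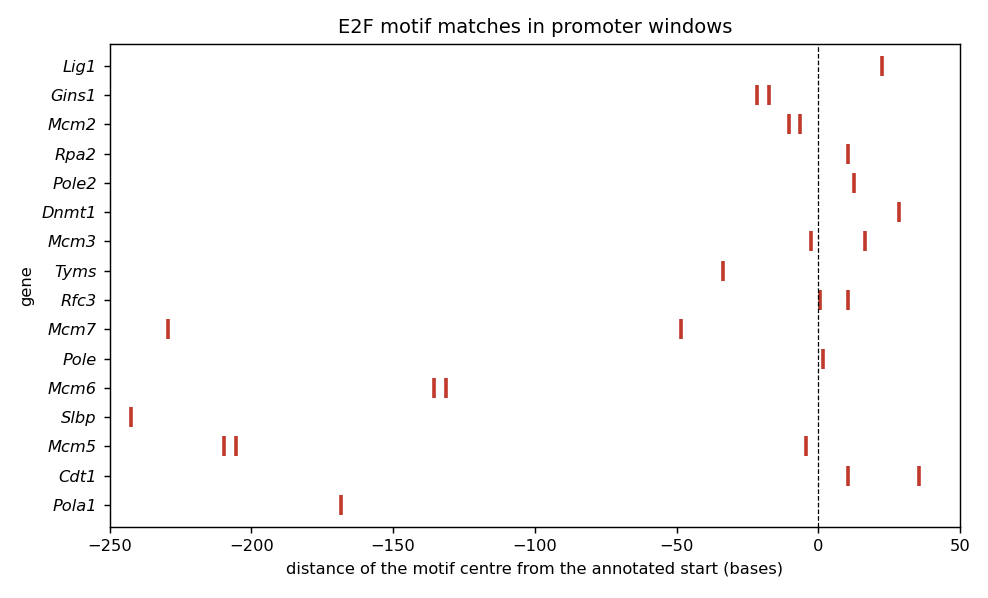
Positions of the E2F motif matches in the promoter windows of the 16 members that had any, as the distance in bases of the motif's centre from the annotated start (horizontal axis, dashed line at the start). Each red mark is 1 match on either strand. Most marks lie near the start, and those of Mcm6, Slbp and Pola1, with a part of those of Mcm5 and Mcm7, lie further upstream.

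The differences were then set out for members with and without a match, as a description. The 16 with a match had a median difference of 0.16, with 13 above 0, and the 18 measured members whose window held none a median of 0.08, with 12 above 0. Without CREB3L1 replicate 3 the medians were 0.04 and 0.07. The windows of 4 members are given in full, Pola1 and Mcm7 with matches in capitals, and Fen1 and Cdc45, which hold none. They are those with the smallest p with all arrays (Fen1 and Pola1), the 1 called without replicate 3 (Cdc45) and the highest difference among members with a match (Mcm7). Counted from the start, with bases before it negative, the match of Pola1 began at -172 and those of Mcm7 at -233 and -52.

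Pola1 (chrX:62342306-62342605, minus strand): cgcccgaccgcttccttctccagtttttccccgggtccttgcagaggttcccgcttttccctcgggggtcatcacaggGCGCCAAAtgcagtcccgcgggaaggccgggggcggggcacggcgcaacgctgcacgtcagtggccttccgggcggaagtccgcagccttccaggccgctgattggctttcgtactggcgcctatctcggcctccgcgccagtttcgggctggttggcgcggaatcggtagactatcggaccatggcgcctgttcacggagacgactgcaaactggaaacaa

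Mcm7 (chr12:22163129-22163428, minus strand): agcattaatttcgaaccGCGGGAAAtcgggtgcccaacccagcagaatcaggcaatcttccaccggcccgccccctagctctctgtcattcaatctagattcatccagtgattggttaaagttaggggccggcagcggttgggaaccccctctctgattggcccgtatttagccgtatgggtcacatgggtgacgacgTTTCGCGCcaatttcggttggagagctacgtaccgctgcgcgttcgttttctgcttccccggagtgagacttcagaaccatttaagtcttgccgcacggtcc

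Fen1 (chr1:216274347-216274646, minus strand): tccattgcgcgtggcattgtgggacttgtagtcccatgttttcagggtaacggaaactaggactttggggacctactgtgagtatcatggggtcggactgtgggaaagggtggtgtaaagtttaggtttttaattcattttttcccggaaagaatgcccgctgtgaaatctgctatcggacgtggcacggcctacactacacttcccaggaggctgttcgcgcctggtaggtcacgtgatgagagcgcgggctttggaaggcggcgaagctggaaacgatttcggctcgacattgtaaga

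Cdc45 (chr11:95689928-95690227, plus strand): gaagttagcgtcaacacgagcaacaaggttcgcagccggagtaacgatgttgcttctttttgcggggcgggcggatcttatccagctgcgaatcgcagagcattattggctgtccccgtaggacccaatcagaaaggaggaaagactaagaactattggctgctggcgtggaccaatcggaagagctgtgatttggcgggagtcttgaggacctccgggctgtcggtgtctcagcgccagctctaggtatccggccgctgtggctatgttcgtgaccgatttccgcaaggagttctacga

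Other genes of replication were read from a list of 67, of which 58 were measured. Of these, 53 lay above background. None passed the test with all arrays, where 1.02% of all genes above background were higher and 2.61% lower. At an unadjusted p below 0.05 there were 5 higher and 6 lower, together 20.8% of the 53. Of all genes above background, 10.6% were higher and 13.0% lower at that level. The median difference of the 53 was 0.03, and 66.0% of them lay above 0, against 51.1% of all genes above background. Without CREB3L1 replicate 3, 1 rose and 2 fell, all above background, in arrays where 3.59% of all genes above background were higher and 6.46% lower. Tcf19, a gene induced at the start of S phase, had 11.40, 11.37 and 11.87 in CREB3L1 cells, against 11.04, 11.08 and 11.13 in untransfected cells. The groups were well apart, and the difference was 0.46 ± 0.14 (limma adjusted p = 0.341) with all arrays and 0.30 (0.0295) without replicate 3.

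The genes that fell in those 5 arrays encode another origin recognition subunit and an enzyme that removes RNA primers. Orc3 had 9.59, 9.54 and 9.77 in CREB3L1 cells, against 9.95, 10.04 and 9.96 in untransfected cells. All CREB3L1 arrays were lower, with a difference of -0.35 ± 0.07 (limma adjusted p = 0.130) and -0.41 (0.0150) without replicate 3, while a second Orc3 probe set gave -1.10 and -0.27 without passing. Rnaseh2a, the catalytic subunit of ribonuclease H2, had 11.40, 11.22 and 11.62 in CREB3L1 cells, against 11.80, 11.70 and 11.76 in untransfected cells. All CREB3L1 arrays were lower, with a difference of -0.34 ± 0.11 (limma adjusted p = 0.344) and -0.44 (0.0355) without replicate 3.

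The members of the origin recognition complex had values on either side of 0. Beside Orc1 and Orc3, the representative probe set of Orc4 gave 0.02 (limma adjusted p = 1.0), while a second, dimmer Orc4 probe set, named here after its values were seen, passed the test. That second probe set had 8.76, 8.70 and 8.82 in CREB3L1 cells, against 8.37, 8.35 and 8.42 in untransfected cells, a rise of 0.38 ± 0.04 (limma adjusted p = 0.0237, and 0.0179 without replicate 3). Among the representative probe sets of the list, the smallest p with all arrays belonged to Pold4, the small subunit of polymerase delta, at 9.36, 9.25 and 9.34 in CREB3L1 cells, against 9.65, 9.81 and 9.63 in untransfected cells. The groups were clearly apart, and the difference was -0.38 ± 0.06 (limma adjusted p = 0.0751, and 0.0580 without replicate 3).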

How the data were processed

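Expression values of 6 arrays, 3 of CREB3L1-transfected and 3 of untransfected cells, were used as deposited. Per the submitters' processing notes, which name Partek 6.6 and RMA, the authors summarised the probes in this way. No source used here states the log base or the probe-level settings, and the deposited values, 0.27 to 17.2, were taken as log2. The table holds no detection calls, and the number of arrays limits the precision.

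The table lists 31099 probe sets, and 31042 were tested after removal of 57 controls. In GEO's platform annotation 20826 had 1 gene symbol, 436 several and 9780 none. A mean per group was fitted to the 6 arrays in limma 3.58.1 (R 4.3.3), followed by eBayes with neither trend nor robust option. Two-sided p-values were adjusted over all tested probe sets by Benjamini-Hochberg and called below 0.05. The fit was tested on simulated data whose noise was independent and of the same spread on all 6 arrays. That test cannot show how the fit handles an array such as CREB3L1 replicate 3. No pairs of arrays were used, and at most 10 probe sets were equal to the last digit between arrays.

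The members, the lists, the background level and the doubt about CREB3L1 replicate 3 were chosen with earlier results of these data known. Named with values on every array are members past the threshold with or without CREB3L1 replicate 3, the 12 with the smallest p, the 6 with the largest difference without that array and the first of each role by p, 16 in all, to which Mcm2, Pola2, Rpa1, Rpa2 and Lig1 were added after their values were seen, and of the other replication genes those past the threshold without that array (3), with Pold4 and the second Orc4 probe set added in the same way. The 14 alternatives were another normalisation, a filter on dim probe sets, other variance models, array weights, the mean of a gene's probe sets and leaving out each array.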

Additional observations from a re-analysis of the deposited data

How the results depend on the processing

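No paired analysis was possible because the labels give no replicate numbers that the groups share. The count of members past the threshold was 0 with all 6 arrays in the main setting. It was 1 with quantile normalisation (Fen1), 3 with array weights (Mcm4, Pola1 and Fen1, all higher), and 0 to 1 when each array was left out in turn, the 1 being Cdc45 without CREB3L1 replicate 3. Under the remaining 6 alternatives (median centring, dim probe sets left out, mean-variance trend, robust eBayes, ordinary test and mean of probe sets) it was 0. The median difference of members, 0.13, was 0.06 with array weights and 0.05 to 0.16 when each array was left out, lowest without CREB3L1 replicate 3. That array also had the lowest array weight, 0.17 against 0.78 to 2.77 for the others. The count of other replication genes past the threshold, 0, was 4 with array weights (Rnaseh2a, Orc3, Pold4 and Rb1, all lower), 1 with the mean of probe sets (Orc4, higher) and 0 to 3 when each array was left out, the 3 without CREB3L1 replicate 3.

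The sign of Cdc45 turned with array weights (-0.21) and without CREB3L1 replicate 3, ranging from -0.26 to 0.18 when each array was left out. Rfc3 ranged from -0.20 to 0.39 and Slbp from -0.06 to 0.33 in the same way. CREB3L1 replicate 3 had the widest gap between 3′ and 5′ control probe sets. The part of that gap in these ranges was not tested, nor was the cause of the changed calls.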
